A study of Mus musculus with 21 samples.

Results

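The genes described here are 10 members of the p53 and senescence pathways, Cdkn1a, Cdkn2a, Trp53, Mdm2, Ccng1, Gdf15, Phlda3, Eda2r, Bbc3 and Bax. They were chosen by name, for their known place in these pathways, from the 21657 genes of the kidney RNA-seq tables. Earlier results of these data were known when the choice was made. All 10 had a row in both tables, and 9 had enough reads to be tested across genes. Only Cdkn2a, with few reads in each kidney, was left out by the filter on low counts.

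The kidneys came from female apoE KO mice on a C57BL/6J background, so that the loss of apoE was shared by every group. Mice were 4 weeks old at the start, were kept on their diets for 14 weeks and were 18 weeks old at the end. The Con group (5 mice) received standard chow, the Ade group (6 mice) received chow with adenine, which injures the kidney tubules, and the Ade + IMC group (6 mice) received adenine together with iodomethylcholine (IMC), an inhibitor of the gut bacterial enzyme that makes trimethylamine, the precursor of trimethylamine N-oxide (TMAO). The Con + IMC group was not analysed here, so the action of IMC without adenine is not described.

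The p53 protein, encoded by Trp53, is a transcription factor that is stabilised when DNA is damaged or cells are stressed. It switches on genes that stop the cell cycle (Cdkn1a), promote death by the mitochondrial route (Bbc3 and Bax) or by a death receptor pathway (Eda2r), restrain growth signalling (Phlda3), and feed back on p53 itself (Mdm2 and Ccng1). Senescence is a lasting arrest of the cell cycle held by the inhibitors that Cdkn1a and Cdkn2a encode, and it is accompanied by secreted proteins such as GDF15. In the kidney these genes are known for their response to tubular injury.

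Levels are given in CPM, the reads of a gene for every 1000000 reads of a library total adjusted by edgeR's TMM factor, which aligns kidneys on the bulk of their genes. The factors were 0.83 to 0.906 in Con, 0.996 to 1.15 in Ade and 0.994 to 1.08 in Ade + IMC, so they set Con apart from the adenine-fed groups, and the CPM of a Con mouse is above its reads divided by its unadjusted total. The unadjusted totals were 7716126 to 11680809 reads in the Con group, 5444833 to 7673215 in Ade and 5728589 to 8305968 in Ade + IMC. The targeted gene, Apoe, still had reads in every kidney, which gene-level counts cannot assign to a working or a disrupted transcript (6.10 to 14.9 CPM in Con, 12.0 to 26.7 in Ade and 11.9 to 24.5 in Ade + IMC). The tissue markers Umod (thick ascending limb) and Lrp2 (proximal tubule) were abundant in every kidney. The injury marker Havcr1 had 1 to 7 reads in Con, 549 to 2104 in Ade and 192 to 1580 in Ade + IMC.

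The promoters of the 10 genes were searched first, because p53 binds a recognisable DNA motif. RefSeq promoters of 300 bases (250 before and 50 after the transcription start, build GRCm38.p6) were available for all 10 genes, 15 promoters in all. The p53 response element was searched for on both strands as 2 adjacent copies of a 10-letter motif (3 purines, C, 2 letters that are A or T, G, and 3 pyrimidines) with no spacer, so that 20 letters could fit. Of the 15 promoters 5, each of another gene, held a 20-letter stretch with at most 3 letters out of place, as did 6.29% of the 32851 promoters in the table. Those of Cdkn1a and Ccng1 had 19 of 20 letters in place, a fit that 0.0883% of all promoters reached.

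The 5 stretches are shown to let the fit be read letter by letter, each with the flanking 30 bases on either side, 5′ to 3′ on the strand of the gene, with capitals for the letters that fit the motif. Positions are counted from the start of the promoter that holds the stretch. The first base of the stretch lies 51 bases before that start in Cdkn1a, 195 before it in Ccng1, 97 before it in Bbc3, 211 before it in Bax and 75 before it in Trp53. The windows of further RefSeq starts of Cdkn1a and Bbc3 had at most 15 of 20 letters in place.
Cdkn1a, chr17:29090898-29090977, plus strand: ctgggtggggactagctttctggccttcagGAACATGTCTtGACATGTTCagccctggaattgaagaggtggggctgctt
Ccng1, chr11:40755432-40755511, minus strand: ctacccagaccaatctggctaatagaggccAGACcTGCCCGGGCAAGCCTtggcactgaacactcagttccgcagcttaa
Bbc3, chr7:16309456-16309535, plus strand: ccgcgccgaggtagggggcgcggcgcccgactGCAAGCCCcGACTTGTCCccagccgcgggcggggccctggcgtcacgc
Bax, chr7:45467060-45467139, minus strand: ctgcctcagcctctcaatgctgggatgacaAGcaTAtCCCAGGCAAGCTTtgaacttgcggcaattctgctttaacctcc
Trp53, chr11:69580254-69580333, plus strand: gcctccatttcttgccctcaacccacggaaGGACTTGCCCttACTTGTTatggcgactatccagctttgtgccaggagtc

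Bbc3 and Bax had 17 of 20 letters in place, as did Trp53. No stretch with so few mismatches lay in these promoter windows of Mdm2, Gdf15, Phlda3, Eda2r or Cdkn2a, which says only that the letters were not within these windows. A match is a description of the sequence, and binding was not measured. Between the 2 genes with the closest fit the TMM-scaled RNA went opposite ways on the adenine diet, as given next, although the fall of Ccng1 did not pass on unadjusted totals.

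The first comparison asked how the adenine diet changed the pathway. Of the 9 tested genes, 7 were higher in Ade than in Con, 1 (Ccng1) was lower and 1 (Mdm2) did not pass the test (edgeR's quasi-likelihood test, adjusted p below 0.1 over 14612 genes). The diet changed most of the transcriptome. The same test called 67.3% of all genes, 35.1% of them higher and 32.2% lower, and this is the background for every count of members. On unadjusted totals, a fit added after the data were seen, 54.7% of genes were higher and 17.1% lower, and the median log2 fold change over all genes moved from 0.02 to 0.32. Of the members 8 were then higher, Mdm2 among them, 0 were lower, and Ccng1 did not pass. Changes in the text are therefore relative to the bulk of genes. Eda2r passed the filter through its level in the adenine-fed mice, since 3 of the 5 Con mice reached the CPM the filter asks for (1.30, on unadjusted totals). Of the 8 members that all 5 Con mice carried at that level, 6 were higher and 1 lower, with a median log2 fold change of 1.53, where the median over all genes tested was 0.02. In whole kidney, fewer cells of a type and less RNA per cell cannot be told apart.

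**Figure D1:**
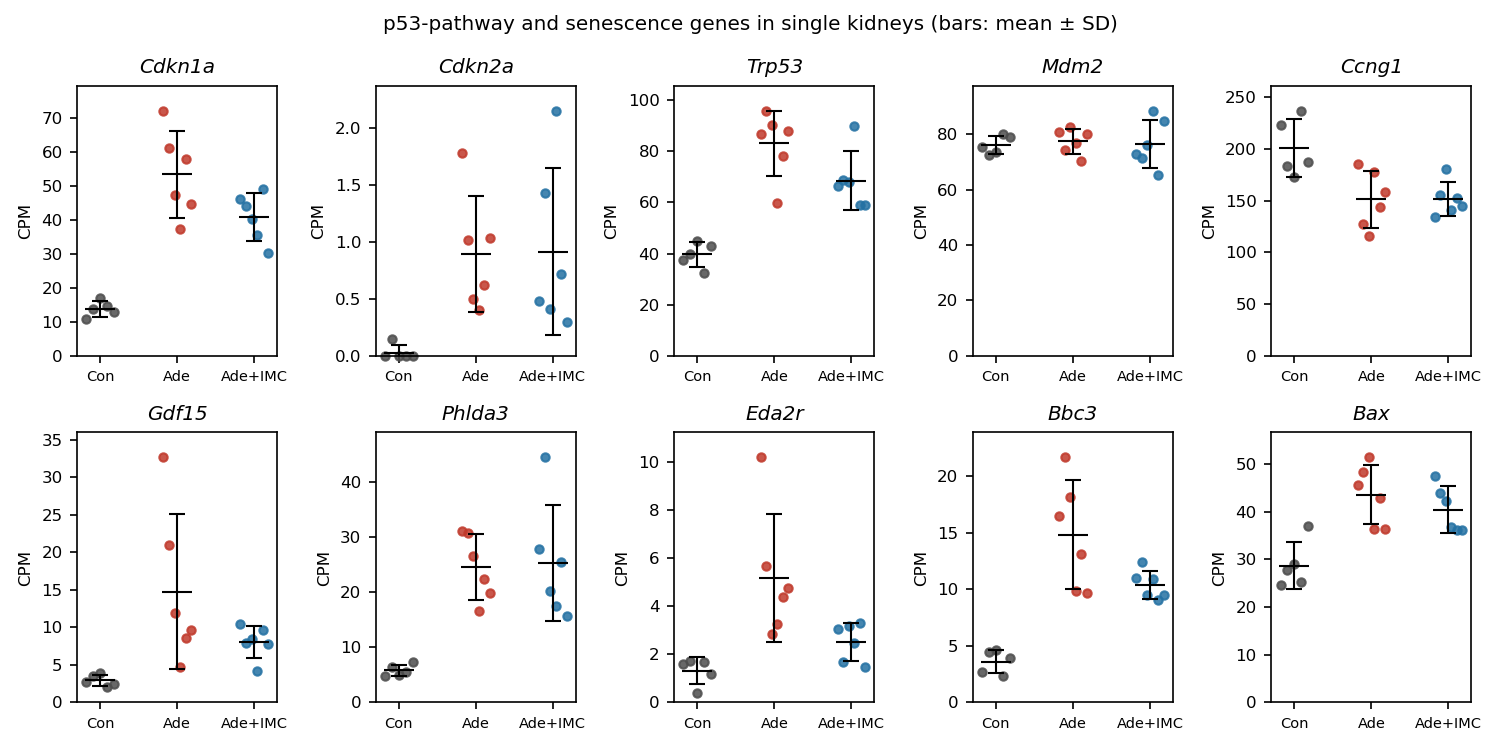
CPM (vertical axes, linear, from 0) of the 10 genes in each kidney of the Con, Ade and Ade + IMC groups, with 1 point per mouse and black bars for the mean ± SD. Cdkn1a, Trp53, Phlda3 and Bbc3 of all 12 adenine-fed mice lie above all 5 Con mice, while Mdm2 is level and Ccng1 of most adenine-fed mice lies below Con on this TMM-adjusted scale. On unadjusted totals the log2 fold changes in Ade were 0.35 for Mdm2 and -0.09 for Ccng1.

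Among the cell cycle inhibitors, Cdkn1a encodes p21, which blocks cyclin-dependent kinases. Its level was 10.8, 13.9, 17.1, 14.7 and 12.9 CPM in the 5 Con mice and ran from 37.2 to 72.1 CPM (median 52.7) in the 6 Ade mice. Every Ade mouse was above every Con mouse. The mean rose from 13.9 ± 2.30 CPM (SD, n = 5) to 53.4 ± 12.7 CPM (SD, n = 6), a 3.93-fold change (log2 fold change 1.97, SE 0.173, adjusted p = 7.10e-07 by edgeR). This change was above that of 92.0% of all genes tested. The gene lies at chr17:29090976-29100727 (GRCm38), where an antisense gene model overlaps 273 of the 3553 bases in its exons, so a part of its reads is uncertain if strand was not used.

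Cdkn2a encodes both p16 and p19ARF from overlapping transcripts, which gene-level counts cannot separate. It had 0, 1, 0, 0 and 0 reads in the 5 Con mice. The Ade mice had 3 to 14 reads each (0.406 to 1.78 CPM, median 0.823), 42 in all, so that each of them was above each Con mouse. The ratio of Ade to Con rests on the single read of Con mouse 202 and is poorly fixed. It was 36.3 on TMM-adjusted totals (95% counting interval 6.17 to 1467) and 45.3 on unadjusted totals (7.70 to 1833), intervals that cover counting error only. The fitted folds, which depend on how the tools treat counts near 0, were 25.7 by DESeq2 and 22.2 by edgeR without the filter. An exact two-sided permutation test of log2 CPM over mice gave p = 0.00216, the smallest it can give with 5 and 6 mice. The gene spans chr4:89274471-89294653.

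Trp53 itself (chr11:69580359-69591873) had 37.5, 40.0, 45.1, 32.6 and 43.0 CPM in Con and 59.9 to 95.9 CPM (median 87.2) in Ade. The groups did not overlap. The mean rose from 39.6 ± 4.87 CPM (SD, n = 5) to 83.0 ± 12.7 CPM (SD, n = 6), 2.13-fold (log2 fold change 1.09, SE 0.125, adjusted p = 7.43e-06 by edgeR).

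The feedback genes did not rise relative to the bulk of genes. Mdm2 (chr10:117688875-117710758), whose product is the ubiquitin ligase that removes p53, had 75.4, 72.3, 73.4, 79.9 and 78.8 CPM in Con and 70.3 to 82.7 CPM (median 78.4) in Ade. The Con range lay within the Ade range. The log2 fold change was 0.05 (SE 0.0672, adjusted p = 0.535 by edgeR), which did not pass the test. On unadjusted totals it was 0.35 (adjusted p = 0.00075), beside a median of 0.32 over all genes.

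Ccng1 (chr11:40748552-40755311), which encodes cyclin G1, a partner of a phosphatase that acts on MDM2, had 223, 183, 173, 237 and 187 CPM in Con and 116 to 185 CPM (median 151) in Ade. The lowest Con mouse was below the highest Ade mouse, so the groups overlapped. The mean was 201 ± 28.0 CPM (SD, n = 5) in Con and 151 ± 27.3 CPM (SD, n = 6) in Ade, and the level fell to 0.766 of Con (log2 fold change -0.39, SE 0.127, adjusted p = 0.0178 by edgeR). By exact permutation over mice of these CPM the two-sided p was 0.0238. On unadjusted totals the log2 fold change was -0.09 (adjusted p = 0.509 by edgeR), so the fall depends on the scaling.

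The death genes rose to different extents. Bbc3 (chr7:16308393-16318205) encodes PUMA, a BH3-only activator of mitochondrial death, and had 2.73, 4.48, 4.60, 2.34 and 3.92 CPM in Con and 9.68 to 21.7 CPM (median 14.8) in Ade, without overlap. The rise was 4.20-fold (log2 fold change 2.07, SE 0.264, adjusted p = 1.88e-05).

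Bax (chr7:45461697-45466898), the pore-forming effector of the same route, had 24.6, 27.7, 29.0, 25.3 and 37.0 CPM in Con and 36.5 to 51.5 CPM (median 44.3) in Ade. The highest Con mouse was just above the lowest Ade mouse, and the rise was 1.54-fold (log2 fold change 0.62, SE 0.128, adjusted p = 0.000825). The gene model Gm45808 covers 192 of the 1576 bases in Bax exons, and the counts are uncertain to that extent.

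Eda2r (chrX:97333840-97377216), a receptor of the tumour necrosis factor family, had 1.61, 1.73, 0.406, 1.69 and 1.18 CPM in Con and 2.84 to 10.2 CPM (median 4.57) in Ade. The groups did not overlap although reads were few (3 to 16 per Con mouse and 17 to 80 per Ade mouse). The mean was 1.32 ± 0.559 CPM (SD, n = 5) in Con and 5.18 ± 2.65 CPM (SD, n = 6) in Ade. Since the filter admitted it through Ade, it is given an exact permutation test over mice, which uses no filter and gave a two-sided p of 0.00216, the smallest it can give.

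Phlda3 (chr1:135766119-135769136), whose product competes with AKT for membrane lipids, had 4.84, 6.50, 5.01, 5.46 and 7.32 CPM in Con and 16.6 to 31.1 CPM (median 24.6) in Ade. Groups were fully apart, and the rise was 4.31-fold (log2 fold change 2.11, SE 0.190, adjusted p = 9.21e-07).

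Gdf15 (chr8:70629393-70632456), a secreted stress cytokine, had 2.73, 3.47, 3.93, 2.08 and 2.48 CPM in Con. In the Ade mice it ran from 4.73 to 32.7 CPM (median 10.8), the widest relative range of the 9 tested genes in that group. All Ade mice were above all Con mice. The rise was 5.13-fold, with the largest standard error of the 9 (log2 fold change 2.36, SE 0.446, adjusted p = 0.000461). Without Ade mouse 207, which had 32.7 CPM, it was 3.91-fold, below Phlda3 (4.10-fold) and Bbc3 (4.13-fold) in the same mice.

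Levels can be set side by side between genes only per length, as CPM per kilobase of exon. In Con, Ccng1 was highest at 57.2 ± 7.97 (SD), followed by Bax (18.2 ± 3.13) and Mdm2 (14.9 ± 0.647), which overlapped each other, and then Trp53 (9.80 ± 1.21). Cdkn1a (3.90 ± 0.647) and Phlda3 (3.74 ± 0.676) overlapped, as did Bbc3 (1.70 ± 0.485) and Gdf15 (1.59 ± 0.405). Eda2r (0.225 ± 0.0948) and Cdkn2a (0.0246 ± 0.0551) were lowest and also overlapped. In Ade, Ccng1 stayed highest at 43.1 ± 7.78 with its range apart from the next gene, Bax at 27.7 ± 3.91. Below it each neighbour in the order overlapped the next down to Bbc3 (6.99 ± 2.26), which was apart from Eda2r (0.879 ± 0.450). Per length, Cdkn1a (15.0 ± 3.57) was then about level with Mdm2 (15.2 ± 0.902).

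Of the 10 genes, 7 lay higher in every Ade mouse than in every Con mouse, all but Mdm2, Ccng1 and Bax. Of all genes tested, 22.4% did so, and 20.6% lay lower in every Ade mouse, as 0 members did. These shares cover tested genes, while the 7 include Cdkn2a, which was not tested, and Eda2r, which passed the filter through Ade. Of the 8 members at the filter level in every Con mouse, those apart were Cdkn1a, Trp53, Gdf15, Phlda3 and Bbc3. Some Ade mice stood high or low for several genes. Mouse 207 was the highest of its group for 6 of the 10 genes (Cdkn1a, Cdkn2a, Ccng1, Gdf15, Phlda3 and Eda2r), and mouse 407 was the lowest for 5 (Cdkn1a, Cdkn2a, Trp53, Gdf15 and Phlda3). No single mouse decided a call, since leaving out each Con or Ade mouse in turn left 8 members called each time.

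**Figure D2:**
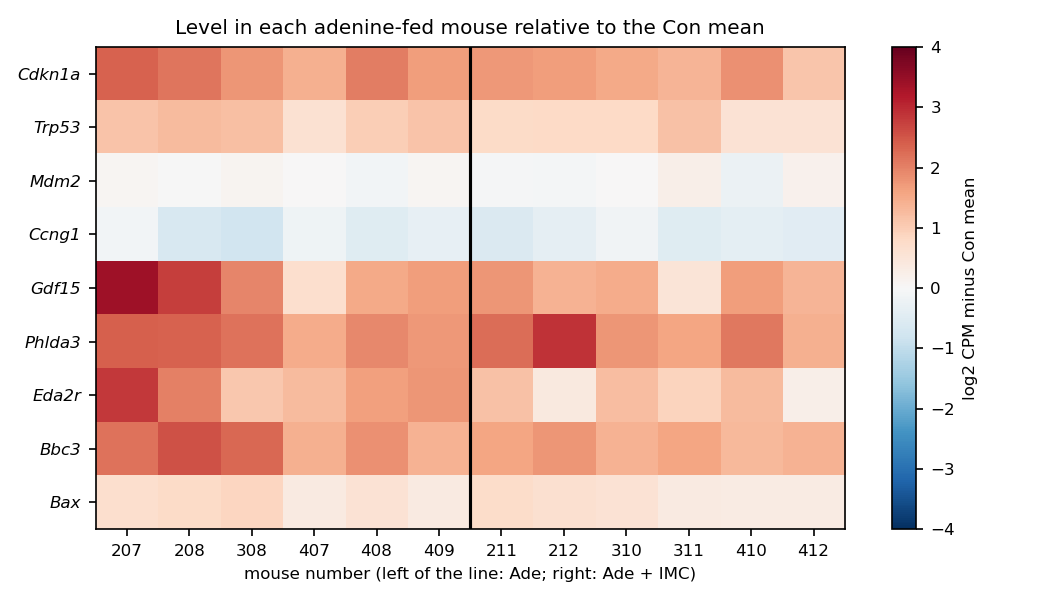
Colours give the log2 CPM of each adenine-fed mouse (columns) minus the Con mean for the 9 tested genes (rows), from blue (lower) over white (0) to red (higher). Mouse 207 is the darkest red for Gdf15 and Eda2r, mouse 212 for Phlda3, and the Mdm2 row is near white.

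The second comparison asked where the members stood when IMC was given with adenine, against chow alone. It uses the same Con mice as the first. Here too 7 of 9 tested genes were higher, Ccng1 was lower and Mdm2 did not pass, where the test called 63.2% of 14578 genes (30.9% higher and 32.3% lower). Without Eda2r, which again was at the CPM of the filter (1.24) in 3 of the 5 Con mice, 6 of 8 were higher and 1 lower. The median log2 fold change was 1.09 over these 8 and -0.02 over all genes. Cdkn1a was 2.89-fold higher than in Con (adjusted p = 2.85e-06), Phlda3 4.27-fold (adjusted p = 2.52e-05), Bbc3 2.84-fold (adjusted p = 2.99e-05) and Gdf15 2.68-fold (adjusted p = 0.00026), all by edgeR. Trp53 was 1.70-fold higher (adjusted p = 0.000191) and Bax 1.38-fold (adjusted p = 0.00435). Eda2r had 2.53 ± 0.794 CPM (SD, n = 6) and gave p = 0.0303 in an exact two-sided permutation test against Con.

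Ccng1 stood at 0.740 of Con (adjusted p = 0.00242), and Mdm2 at 0.989 (adjusted p = 0.889). On unadjusted totals Ccng1 was at 0.907 (adjusted p = 0.182) and Mdm2 at 1.21 (adjusted p = 0.0102), while 51.7% of all genes were higher, 15.4% lower and the median log2 fold change was 0.27. Cdkn2a had 2 to 19 reads per mouse (44 in all, median 0.600 CPM), a ratio to the single Con read of 39.2 on TMM-adjusted totals (counting interval 6.68 to 1583) and 47.0 on unadjusted totals (8.01 to 1900), with fitted folds of 26.5 by DESeq2 and 22.6 by edgeR without the filter. For 6 of the 10 genes all Ade + IMC mice were above all Con mice, which held for 20.5% of genes tested. The 6 include Cdkn2a, which was not tested. Eda2r, apart in Ade, overlapped here, with 1.47 CPM in the lowest Ade + IMC mouse and 1.73 CPM in the highest Con mouse.

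The third comparison set the 2 adenine-fed groups against each other and so asked what IMC changed. None of the 9 tested genes passed the test, which called 0 of 14696 genes (0%) at an adjusted p below 0.1 (limma trend fit to log2-transformed normalized counts). By edgeR, which called 0 genes, and by DESeq2, which called 37, 0 members were called as well. The paper reports far more genes, both higher and lower, between these groups, by DESeq2 at the same threshold. Why the counts differ was not tested. At an unadjusted p below 0.05, limma had 4 of the 9 members, Cdkn1a, Trp53, Eda2r and Bbc3, all lower with IMC, where 6.72% of all genes reached that level, 3.37% of them higher and 3.35% lower. edgeR had 5 of 9 members at that level (2.69% of all genes higher and 4.03% lower) and DESeq2 5 of 10 (2.74% higher and 2.95% lower), all lower and Gdf15 being the additional gene. The median log2 difference was -0.29 over the members and 0.006 over all genes. None of the 10 genes had its groups fully apart, with 0.204% of all genes apart in either direction and 0.0885% lower with IMC throughout.

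Eda2r had the largest difference. It ran from 2.84 to 10.2 CPM (median 4.57) in Ade and from 1.47 to 3.29 CPM (median 2.78) in Ade + IMC, and 2 Ade mice lay within the Ade + IMC range. The log2 difference was -0.94 (95% interval -1.60 to -0.29, adjusted p = 0.711 by limma), and an exact permutation test gave p = 0.0152. Without Ade mouse 207 it was -0.73.

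Cdkn1a ran from 37.2 to 72.1 CPM in Ade and from 30.2 to 49.1 CPM (median 42.1) in Ade + IMC. The 3 highest mice were Ade mice and the 2 lowest were Ade + IMC mice. The log2 difference was -0.38 (95% interval -0.73 to -0.04, adjusted p = 0.715 by limma).

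Bbc3 was 9.68 to 21.7 CPM in Ade and 9.02 to 12.4 CPM (median 10.2) in Ade + IMC. The 4 highest values were those of Ade mice. The log2 difference was -0.47 (95% interval -0.88 to -0.05, adjusted p = 0.715 by limma).

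Trp53 was 59.9 to 95.9 CPM in Ade and 58.8 to 89.9 CPM (median 67.4) in Ade + IMC. All but 1 Ade + IMC mouse, mouse 311, were below all but 1 Ade mouse, mouse 407. The log2 difference was -0.29 (95% interval -0.57 to -0.01, adjusted p = 0.731 by limma).

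Gdf15 ran from 4.20 to 10.5 CPM (median 8.16) in Ade + IMC, against 4.73 to 32.7 CPM in Ade. The 3 highest values were in Ade, and the log2 difference of -0.65 had an interval from -1.48 to 0.18 (adjusted p = 0.764 by limma). It was -0.37 without Ade mouse 207 and -0.92 without Ade mouse 407. Phlda3 ran from 15.7 to 44.6 CPM (median 22.9) with IMC, its highest value in mouse 212, and the difference was -0.03 (interval -0.54 to 0.48). These intervals are wide, and a p that missed the threshold does not show that the groups were alike.

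Bax differed by -0.11 (interval -0.35 to 0.12), Mdm2 by -0.03 (-0.21 to 0.14) and Ccng1 by 0.00284 (-0.24 to 0.25) on the log2 scale. For Mdm2 and Ccng1 a log2 difference beyond 0.25 in either direction was thus outside the 95% interval. Cdkn2a had 42 reads in the 6 Ade mice and 44 in the 6 Ade + IMC mice, and an exact permutation test gave p = 0.818.

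**Figure D3:**
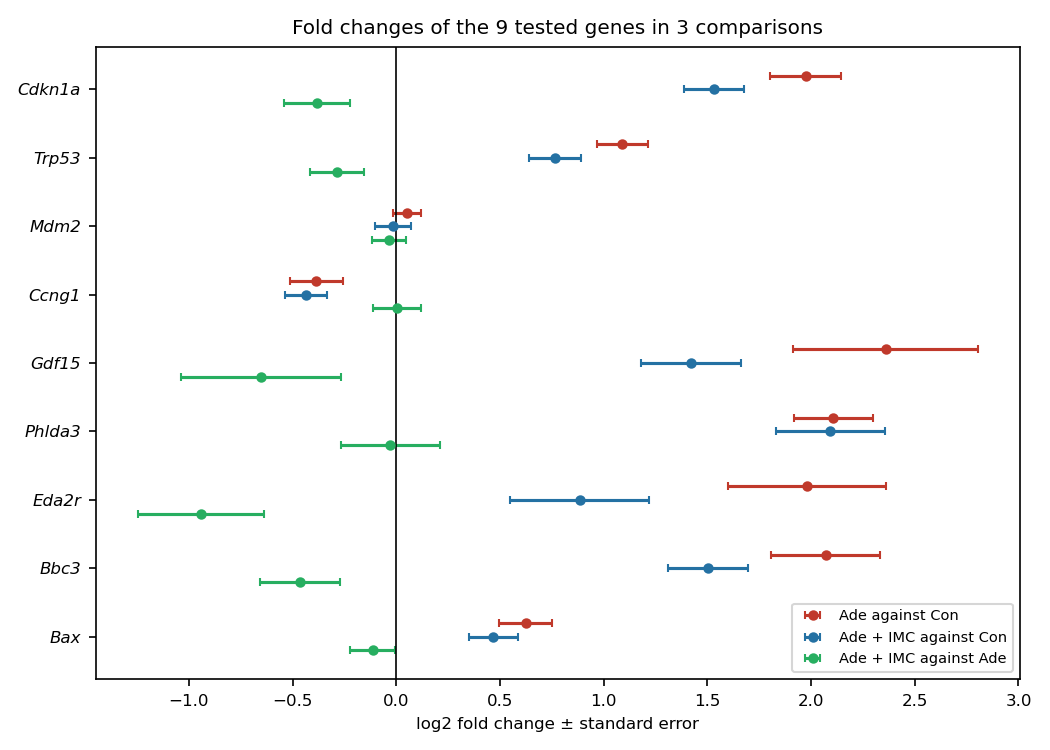
Points give the log2 fold change (horizontal axis) with its standard error for the 9 tested genes (rows) in Ade against Con, Ade + IMC against Con and Ade + IMC against Ade. Phlda3 stands at 2.11 and 2.09 against Con, and Eda2r at 1.98 and 0.88. The third set shares the Ade + IMC and Ade mice with the other two.

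The first digit of the mouse number (2, 3 or 4) marked mice whose RNA deviated together, although its meaning is not stated. With this digit as a replicate block, limma called 133 genes (0.905%) between the 2 adenine-fed groups in place of 0, and still 0 members. In that fit 13.7% of all genes were below an unadjusted p of 0.05, against 6.72% without the block. The adjusted p was 0.128 for Bbc3, 0.165 for Trp53, 0.188 for Eda2r and 0.224 for Cdkn1a in that fit. In an exact permutation test within digits the two-sided p was 0.00556 for Bbc3, the smallest this test can give, 0.0111 for Trp53, 0.0222 for Eda2r and 0.0389 for Cdkn1a. The same tests without regard to the digit gave 0.0606, 0.0736, 0.0152 and 0.0606. Ade had 2, 1 and 3 mice with the digits 2, 3 and 4, and Ade + IMC had 2 with each. Differences within digit 3 therefore rest on 1 Ade mouse. Within the digits 2, 3 and 4 the log2 differences were -0.70, -0.84 and -0.24 for Bbc3, -0.43, -0.22 and -0.36 for Trp53, and -0.56, -0.35 and -0.27 for Cdkn1a. Those of Eda2r were -1.69, -0.03 and -0.87. Gdf15 differed by -1.52 and -0.99 in the first 2 digits and by 0.21 in the third.

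Which members fell below an unadjusted p of 0.05 depended on single mice. With each of the 12 mice left out in turn, the count ran from 1 to 5, and Eda2r was among them every time. The share of all genes at that level moved too, from 4.19% without Ade mouse 208 (1 member) to 12.9% without Ade mouse 407 (5 members). It was 1, with only Eda2r, without Ade mouse 207, Ade mouse 208 or Ade + IMC mouse 412. It was 2 without Ade mouse 308 or Ade + IMC mouse 310 or 410. Mouse 412 was the lowest of its group for 6 of the 10 genes.

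A wider list held 38 other p53 targets. Counts over this and the next lists stand against the 35.1% of all genes that were higher and the 32.2% that were lower in Ade (30.9% and 32.3% with IMC). The filter works on CPM of unadjusted totals, and a gene below 1.30 on that scale in a Con mouse may have passed the filter only because it was high in Ade, so for each list the genes at or above that level (1.24 CPM with IMC) in all 5 Con mice are counted, and for a gene below it values are given without a test, in the TMM-adjusted CPM used so far. On unadjusted totals 28 of 37 other p53 targets were higher and 3 lower. Of the named genes that fell in Ade in this and the next lists, all kept their call there except Sesn2 (1.02 of Con), Atm (0.901) and Bcl2l2 (0.934). On the adenine diet 22 of the 37 that could be tested were higher, 9 were lower and 6 did not pass. Of the 35 at or above 1.30 CPM in all Con mice, 20 were higher and 9 lower. The largest fitted rises were those of Psrc1, a microtubule regulator below that level, with 1.04 ± 0.193 CPM in Con and 9.61 ± 5.97 CPM in Ade (mean ± SD), and of Sfn, the cell cycle inhibitor 14-3-3 sigma, from 4.65 ± 0.761 to 20.3 ± 7.08 CPM (4.40-fold, adjusted p = 6.77e-06). The largest falls were in Igfbp3, a binding protein for insulin-like growth factors, from 310 ± 39.5 to 108 ± 34.4 CPM (0.354 of Con, adjusted p = 1.62e-05), and in Perp, a membrane protein, from 81.3 ± 3.77 to 51.0 ± 9.67 CPM (0.637 of Con, adjusted p = 0.000227). With IMC 19 of the 35 so counted were higher than in Con and 10 lower. With IMC on unadjusted totals only Igfbp3, Perp, Steap3 and Xpc were lower. Ei24, Ercc5, Fdxr, Polk, Rrm2b, Sesn2, Slc19a2, Triap1 and Zmat3 did not pass there, and the others were higher. Between the adenine-fed groups 0 passed in limma, and the median difference was -0.10. For 29 of these genes there were 37 RefSeq promoters. Of the 37, 6 had a p53 element with at most 3 mismatches, beside 6.29% of all promoters. These 6 belong to 5 genes (Aen, Gadd45a, Polk, Sesn1 and Tigar). An element with at most 1 mismatch was found in 0 of the 37, beside 0.0883% of all promoters.

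**Figure D4:**
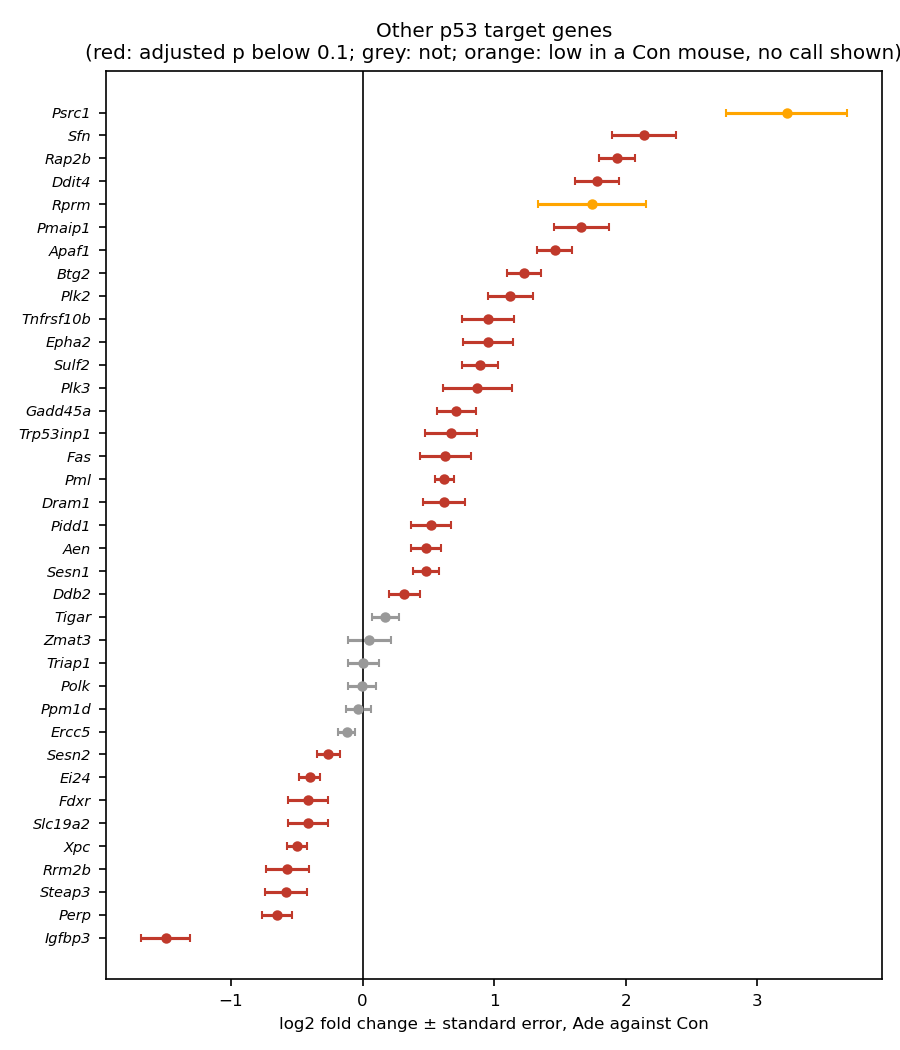
Each point is the log2 fold change of another p53 target gene (rows) in Ade against Con, with its standard error, red where the adjusted p of edgeR was below 0.1, grey where it was not, and orange, with no call, for the 2 genes below 1.30 CPM (unadjusted totals) in a Con mouse. The other 35 genes run from Igfbp3 at -1.50 to Sfn at 2.14, with 20 called higher and 9 lower.

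Of 19 tested p53 family members and regulators 4 were higher and 5 lower in Ade than in Con, both smaller shares than over all genes, but 10 higher and 1 lower on unadjusted totals. Of the 17 at or above 1.30 CPM in all Con mice, 2 were higher and 5 lower. Below that level in at least 1 Con mouse, Chek1, a kinase of the DNA damage checkpoint, had 1.58 ± 0.282 CPM in Con and 4.08 ± 0.543 CPM in Ade, and the p53 relative Trp63 had 1.88 ± 0.936 and 3.94 ± 2.18 CPM. Hipk2, a kinase that phosphorylates p53, fell to 0.413 of Con (adjusted p = 0.000314) and Atm, the kinase that signals DNA breaks, to 0.733 (adjusted p = 0.023). With IMC 2 of the 17 were higher and 7 lower than in Con. This balance depends on the scaling. With IMC on unadjusted totals only Atm and Hipk2 of the 17 were lower. Chek2, Trp53bp1, Crebbp, Kat5, Rpl5, Rpl11 and Hdac1 were higher there.

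The retinoblastoma (RB) pathway carries the arrest that Cdkn1a and Cdkn2a impose. Of its 22 listed genes 12 were higher and 2 lower in Ade, and of the 20 at or above 1.30 CPM in all Con mice 10 and 2. The transcription factor E2f1 rose 2.91-fold (adjusted p = 5.55e-07). Ccne1, the cyclin that starts DNA synthesis, was below that level, with 0.763 ± 0.349 CPM in Con and 3.95 ± 1.24 CPM in Ade. Both genes that fell encode RB proteins, Rb1 to 0.610 of Con (adjusted p = 0.00136) and Rbl2 to 0.632 (adjusted p = 8.75e-05). With IMC 9 of the 20 were higher and 4 lower than in Con. Rb1 and Rbl2 were the only listed genes lower than Con on unadjusted totals, in Ade and with IMC alike. Ccnd1 and Bmi1 did not pass there in Ade, and all others were higher.

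In the BCL2 family, 8 of 13 tested genes were higher and 3 lower, and of the 12 at or above 1.30 CPM in all Con mice 7 and 3. The survival gene Bcl2a1b, below that level, had 0.206 ± 0.182 CPM in Con and 3.50 ± 0.737 CPM in Ade, values made uncertain by its near-identical copies. Pmaip1, which encodes NOXA, rose 3.16-fold (adjusted p = 1.73e-05). Bid, which links death receptors to mitochondria, fell to 0.646 of Con (adjusted p = 2.83e-05) and the survival gene Bcl2l2 to 0.762 (adjusted p = 0.000427). With IMC 6 of the 12 were higher and 3 lower. Bid was the only tested gene lower than Con on unadjusted totals, in Ade and with IMC alike. Bcl2l1, Bcl2l2 and Bad did not pass there in Ade, and all others were higher.

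Of 27 tested genes of the senescence-associated secretory list 19 were higher and 5 lower. Of the 18 at or above 1.30 CPM in all Con mice, 10 were higher and 5 lower, so 9 of the higher genes may owe their place to their level in Ade. Among these 9 were the matrix protease Mmp3, with 0.343 ± 0.263 CPM in Con and 25.5 ± 6.83 CPM in Ade, and the chemokine Ccl20, with 0.0521 ± 0.0714 and 3.75 ± 1.89 CPM. Igfbp3 fell as given, and Igfbp5 fell from 810 ± 223 to 395 ± 127 CPM (adjusted p = 0.00187). With IMC 12 of the 19 at the filter level in all Con mice were higher and 5 lower. In Ade on unadjusted totals Plau, Igfbp3, Igfbp4, Igfbp5 and Vegfa were lower, Mmp13 did not pass, and all other tested genes were higher. With IMC on those totals Igfbp5 did not pass either.

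A further list of 11 senescence markers shares Plaur with the secretory list and Cdkn2b with the RB list. Of these 11 markers 6 were higher and 3 lower, and of the 10 at or above 1.30 CPM in every Con mouse, all but Cdkn2b, 5 and 3. Plaur, the urokinase receptor, rose 3.08-fold (adjusted p = 0.000209) and B2m, beta-2-microglobulin, 3.02-fold (adjusted p = 3.00e-06). Kl, the anti-ageing hormone klotho made by the distal tubule, fell to 0.343 of Con (adjusted p = 0.000303), and Dpp4, a surface peptidase that proximal tubules also carry, to 0.587 (adjusted p = 0.000531). The list includes Lmnb1 and Hmgb2, which were higher in Ade here (log2 fold changes 1.47 and 0.94), 2 genes singled out after their values were seen because both are known to fall in senescent cells. In Ade on unadjusted totals Glb1, Dpp4 and Kl were lower, and every other marker of the list, Cdkn2b among them, was higher. Whether cells were senescent was not tested. With IMC 5 of the 10 were higher and 3 lower than in Con.

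Gdf15 is also a target of the integrated stress response, of which 10 of 15 tested genes were higher and 2 lower in Ade, and of the 10 at or above 1.30 CPM in all Con mice 7 and 2. Below that level in at least 1 Con mouse, the transcription factor Atf3 had 2.17 ± 0.453 CPM in Con and 18.6 ± 6.35 CPM in Ade, and the cystine transporter Slc7a11 had 0.434 ± 0.281 CPM in Con and 6.71 ± 2.15 CPM in Ade. Shmt2, a mitochondrial one-carbon enzyme, fell to 0.560 of Con (adjusted p = 0.000874) and Sesn2 to 0.835 (adjusted p = 0.0225). With IMC 8 of the 10 were higher and 2 lower than in Con. Shmt2 was the only tested gene lower than Con on unadjusted totals, in Ade and with IMC alike. Trib3 and Sesn2 did not pass there, and all others were higher.

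Cell cycle genes rose alongside the inhibitors. All 18 proliferation genes were higher in Ade than in Con, of which 10 were at or above 1.30 CPM in all Con mice. Of the others, Cdk1 had 1.35 ± 0.365 CPM in Con and 15.3 ± 5.46 CPM in Ade, and Ccnb2 0.901 ± 0.327 and 10.3 ± 3.39 CPM. Their summed level was 101 to 116 CPM in Con, 305 to 554 in Ade and 205 to 679 in Ade + IMC.

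RNA of cell type markers differed between the groups along with the members. All 14 leukocyte markers were higher in Ade, and their summed level was 192 to 226 CPM in Con, 1125 to 1938 in Ade and 971 to 2139 in Ade + IMC. Likewise all 9 fibroblast and myofibroblast markers were higher (425 to 516, 2821 to 3477 and 2168 to 3234 CPM), as were all 12 injured tubule markers (1950 to 2520, 6758 to 20642 and 4342 to 13767 CPM). All 10 tested proximal tubule markers of the 11 listed were lower (14209 to 19946, 2062 to 8323 and 3728 to 7443 CPM), and so were 9 of 10 markers of other nephron segments (8062 to 12204, 3947 to 8064 and 6358 to 10405 CPM). Podocyte and endothelial markers were mixed, with 1 of 10 higher and 3 lower (1431 to 1753, 601 to 1661 and 1094 to 2250 CPM). On unadjusted totals 7 of the 10 markers of other nephron segments were lower, and of the podocyte and endothelial markers 2 were higher and 1 lower, while the other 4 marker lists kept their counts. No marker of these 6 lists was at 0 in a whole group. Of the leukocyte markers 6, and of the injured tubule markers 4, were below 1.30 CPM in a Con mouse. The part of these shifts in the members' levels was not tested. Between the adenine-fed groups 0 genes of any of these lists passed in limma.

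Mice of one group varied together in Cdkn1a and some other genes. With each group's mean subtracted, genes among the 14413 compared whose log2 CPM was most like that of Cdkn1a over the 17 mice included Dusp8 (Pearson r = 0.927), Rprm (0.913), Tubb2a (0.901) and Rtf2 (0.888). Rprm, a cell cycle inhibitor, is on the list of other p53 targets. Of the members, Gdf15 had r = 0.724 (rank 108 of the 14413 genes), Phlda3 0.629, Bbc3 0.499, Bax 0.426, Eda2r 0.348, Trp53 0.287, Ccng1 -0.10 and Mdm2 -0.49. These values carry no test, and the genes compared share libraries and depth.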

How the data were processed

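Kidney RNA of 17 mice was analysed. Groups came from the sample labels. The authors deposited raw counts per gene for Con and Ade. For Ade and Ade + IMC they deposited a signal, the count divided by a DESeq2 size factor. The paper's methods name STAR and mm10, and the submitters' processing notes name Trimmomatic 0.39, FastQC 0.11.8, Bowtie2 2.2.5 and HTSeq 0.9.1. The annotation release and use of strand are not given in the sources used here. A further table deposited by the authors holds their own DESeq2 comparison of Ade + IMC with Ade (a log2 change, a Wald score and a p-value for each gene). It was used for gene symbols alone. All normalized values (100%) were whole multiples of 1 read (tolerance 1e-06 reads), and for the Ade mice 0 of the reads so recovered departed from the raw counts.

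Comparisons with Con used edgeR 4.0.16 (quasi-likelihood, TMM, filterByExpr), with recovered reads for Ade + IMC. For the adenine-fed groups, limma 3.58.1 (trend) was fitted to log2(normalized count + 1) of genes averaging at least 10 normalized counts. Fold changes there are on that scale, which understates those of low genes. The threshold was an adjusted p (Benjamini-Hochberg, over all genes tested) below 0.1. Alternatives were DESeq2 1.42.0, other scalings, filters and pseudocounts, and leaving out each mouse. For single genes, exact permutation tests over mice were two-sided and were repeated with splits kept among mice whose numbers share a first digit. After group means were subtracted, mice sharing that digit correlated across groups (r = 0.360, 0.375 and 0.202 for digits 2, 3 and 4), so the digit was used as a replicate block. The labels do not say what the digit marks. Scripts were tested on simulated data.

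Levels are CPM of totals multiplied by edgeR's TMM factor over the 17 mice, on which 3 reads made 0.303 to 0.433 (Con), 0.341 to 0.501 (Ade) and 0.340 to 0.484 CPM (Ade + IMC). The 10 genes, the gene lists and the p53 motif were chosen with earlier results of these data known. Named from each list other than cell type markers were the 2 called genes with the largest rise and the 2 with the largest fall in Ade against Con. Cdkn1a-like genes were the 5 with the highest r, of which 1 is not reported here. Lmnb1 and Hmgb2, and the p53 targets with a motif, were named after their values were seen. Coordinates of genes are from GENCODE on GRCm38, and promoters from RefSeq.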

Additional observations from a re-analysis of the deposited data

Results flagged for a closer look

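In 30 groups of values (10 genes in 3 groups of mice) 2 held a mouse far from the others of its group by Dixon's criterion, where chance flags about 1 in 20. Trp53 was 89.9 CPM (793 reads) in Ade + IMC mouse 311, and 58.8 to 68.9 CPM in the other 5 mice of that group. Without this mouse the log2 difference from Ade was -0.37 (adjusted p = 0.448 by limma), and with it -0.29. Mouse 311 was also the highest of its group for Cdkn2a and Mdm2 and the lowest for Gdf15. Cdkn2a was 0.144 CPM in Con mouse 202, which is 1 read, with 0 reads in the other 4 Con mice.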

How the results depend on the processing

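Of 504 recomputed fold changes of single members, 500 kept their call, and their direction where called. The other 4 were on unadjusted totals, an alternative added after the data were seen, which moved the median over all genes to 0.32 (Ade) and 0.27 (Ade + IMC against Con). Mdm2 then passed as higher (0.348 and 0.274 in place of 0.05 and -0.02 on the log2 scale) and Ccng1 did not pass (-0.09 and -0.14). Members called ran from 8 to 9 in Ade against Con and in Ade + IMC against Con, the ninth being Cdkn2a where no filter or DESeq2 admitted it, and stayed at 0 between the adenine-fed groups. Leaving out each mouse gave 8 to 8 members, 8 to 8 members and 0 to 0 members, and 9145 to 9848, 8486 to 9185 and 0 to 0 genes. Genes called between the adenine-fed groups were 0 by limma, 37 by DESeq2, 133 by limma with the replicate block and 104 by edgeR with the replicate block, a fit added after the data were seen. In an exact permutation test, differences that passed 0.05 within digits but not over all mice were -0.39 for Cdkn1a, -0.35 for Trp53 and -0.54 for Bbc3. The replicate block changed no other call of a member. Of the members, Cdkn2a and Eda2r had the fewest reads in each group. The causes of these differences were not tested.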
